A study of Mus musculus with 6 samples.

Results

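The genes examined here encode the proteasome, the protease complex that degrades ubiquitin-tagged proteins in the cytosol and nucleus. They were read from RNA-seq of 889 cells (889-DTC), a murine lung cancer line from C57BL/6 mice that the labels list under lung tissue. The authors sequenced 3 libraries of cells expressing Cas9 with a control sgRNA (sgcontrol), which the methods give as a construct against EGFP, and 3 libraries of cells expressing Cas9 with sgRNA against mouse kiaa1522 (sgkiaa1522). The methods list more than 1 sgRNA for kiaa1522, and neither they nor the labels say which of them the sequenced cells carried, whether the cells were a pool or a single clone, or whether the replicates were separate cultures, so the p-values measure the spread between these libraries, which may be technical. Members were rows of all 6 count files whose gene name starts with Psma, Psmb, Psmc, Psmd, Psme or Psmg and a digit, without the immunoproteasome genes Psmb8, Psmb9 and Psmb10 and without names of the -ps form, and with more than 500 counts summed over the 6 libraries. Of 53 names with these prefixes, 46 remained after the exclusions and 44 passed the filter on counts, among 34745 genes in the files and 10046 that passed the same filter. The 2 that did not pass were the testis-specific alpha subunit Psma8, at 0 counts in every library, and the thymus-specific beta subunit Psmb11, with 1 count in 1 library. The label of proteasome genes held for 43 of the 44 members, and the other, Psmc3ip, shares the prefix but encodes a factor of meiotic recombination that is not a part of the proteasome. It was kept in the counts, which are also given without it.

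The 20S core particle is a barrel of stacked rings, in which alpha subunits form the outer rings and gate the entrance, and beta subunits form the inner rings and hold the proteolytic sites. The 19S regulatory particle caps the barrel, and its base of ATPases unfolds substrates while its lid removes the ubiquitin chains. Other caps, the PA28 and PA200 activators, open the barrel without ATP, and dedicated chaperones assemble the base and the rings. Of the 44 members, 14 encode the 20S core (7 alpha and 7 beta), 17 the 19S particle (6 ATPases, 3 other base subunits and 8 lid subunits), 5 the activators and 7 the assembly chaperones. In every library the members took between 0.434% and 0.488% of all counts, and their totals over the 6 libraries ran from 818 to 42126 counts.

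Some facts of the libraries bear on all values below. The totals ran from 12220001 to 18609376 counts per library, and values are given as TMM-scaled CPM, each library's counts set to a common total, with the SD over 3 libraries. The targeted gene, kiaa1522 (C77080 in the files), was not lower but higher in the libraries labelled sgkiaa1522, from 127 ± 2.93 to 210 ± 6.38 CPM (SD, n = 3; log2 fold change 0.73, adjusted p = 9.1e-05). Each adjusted p comes from the quasi-likelihood test of edgeR and is adjusted over all tested genes by the Benjamini-Hochberg method, unless another test is named. Every direction below follows these labels and not a loss of kiaa1522 mRNA. The study describes these cells as depleted of KIAA1522, and mRNA counts do not measure its protein. Of 5 epithelial markers, 4 passed the filter and Epcam was at 0 counts in every library, and their summed level was 3193 to 3719 CPM in sgcontrol and 2805 to 2988 CPM in sgkiaa1522, nearly all of it Krt8 and Krt18. Cdh1 had 52.1 to 61.8 CPM in sgcontrol and 19.3 to 21.3 CPM in sgkiaa1522, and Nkx2-1 had 1 library far from the other 2 in each group. The 4 fibroblast markers (2 past the filter, Dcn at most at 2 counts) summed to 466 to 486 and 166 to 198 CPM, and the 4 immune markers (1 past the filter, Cd3e at 0) to 2.27 to 5.62 and 11.04 to 13.9 CPM. The higher immune sum was that of Cd68 (1.14 to 1.24 and 10.1 to 12.8 CPM), while Lyz2 was at 0.971 to 3.62 and 0.906 to 0.942 CPM. None of 3 endothelial markers passed, and they summed to 0.647 to 1.38 and 0.766 to 1.15 CPM. Whether these markers play a part in the results below was not tested. In bulk RNA, fewer cells that express a gene and less of its RNA per cell cannot be told apart.

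Of the 44 members, 19 were lower and 8 higher in the libraries labelled sgkiaa1522 at an adjusted p of at most 0.05, and 17 did not pass. Among all 10046 tested genes, 26.3% were lower and 26.3% were higher by the same rule. The median log2 fold change (sgkiaa1522/sgcontrol) was -0.16 over the members and -0.0067 over all tested genes. Of the members, 29 were below 0 and 15 above, against 5079 and 4967 of all tested genes. Without Psmc3ip, 18 were lower and 8 higher. With an offset for transcript length, described further on, 16 members were lower and 13 higher (26.9% and 28.3% of all tested genes). Their median was then -0.01. In 21 members every sgkiaa1522 library was below every sgcontrol library and in 10 every one was above, against 31.1% and 30.6% of all tested genes. Only Psme2, Psme2b and Psmc3ip also fell by the size the methods of the study ask for, 1 on the log2 scale (4.34% of tested genes did so), Psmc3ip by a margin too small to hold with RLE size factors, and no member rose by 1 (2.74% of tested genes). The study also gives a stricter size for a plot of its genes. No member reached that size, which is 2 on the log2 scale. The plot of fold changes by role shows the members.

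**Figure D1:**
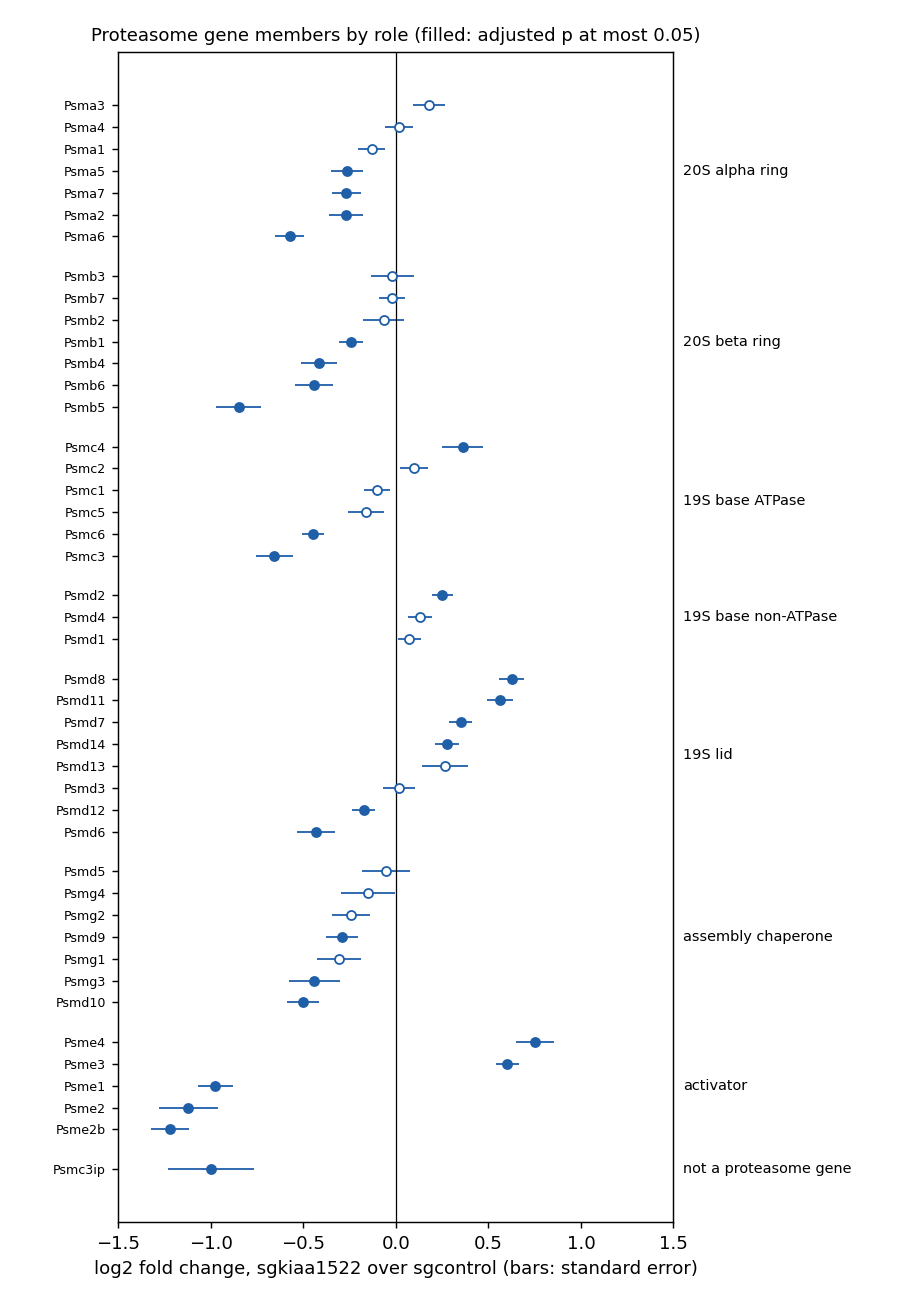
Log2 fold change (sgkiaa1522 over sgcontrol) of the 44 members, grouped by role, with the standard error as bars and filled circles for an adjusted p of at most 0.05. The filled points of the 20S rings and the assembly chaperones all lie below 0, those of the 19S particle lie on both sides, and the activators span the whole range from -1.22 to 0.75.

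The levels were also summed over the genes of each role. Summed over the 14 genes of the 20S core, the level was 1690.3, 1908 and 1976 CPM in sgcontrol and 1642, 1530.2 and 1529 CPM in sgkiaa1522 (means 1858 ± 149 and 1567 ± 65.0 CPM, SD, n = 3). The 17 genes of the 19S particle summed to 2137, 2283 and 2326 CPM in sgcontrol and to 2503, 2444 and 2426 CPM in sgkiaa1522 (2249 ± 99.1 and 2457 ± 40.1 CPM, SD, n = 3). The groups did not overlap in either sum, and the 20S core was the lower and the 19S particle the higher in sgkiaa1522. The 20S sums stayed apart without any one of the 14 genes, but those of the 19S particle rested on Psmd8, without which they were 1871, 1975 and 2033 CPM in sgcontrol and 2048, 2012 and 1976 CPM in sgkiaa1522 and overlapped. Within the particle, the 8 lid genes went from 997 ± 54.7 to 1227 ± 18.2 CPM while the 6 ATPase genes went from 724 ± 46.7 to 639 ± 20.3 CPM (SD, n = 3). The lid sums stayed apart without Psmd8 (708 ± 35.8 and 782 ± 27.2 CPM, SD, n = 3), while the ATPase sums overlapped without Psmc3 or Psmc6. The sums of the activators, higher in sgkiaa1522, overlapped without Psme3 and were lower in sgkiaa1522 without Psme4. No test was made of these sums. The 44 members together were at 4651 ± 261 and 4577 ± 119 CPM (SD, n = 3), and here the groups overlapped.

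**Figure D2:**
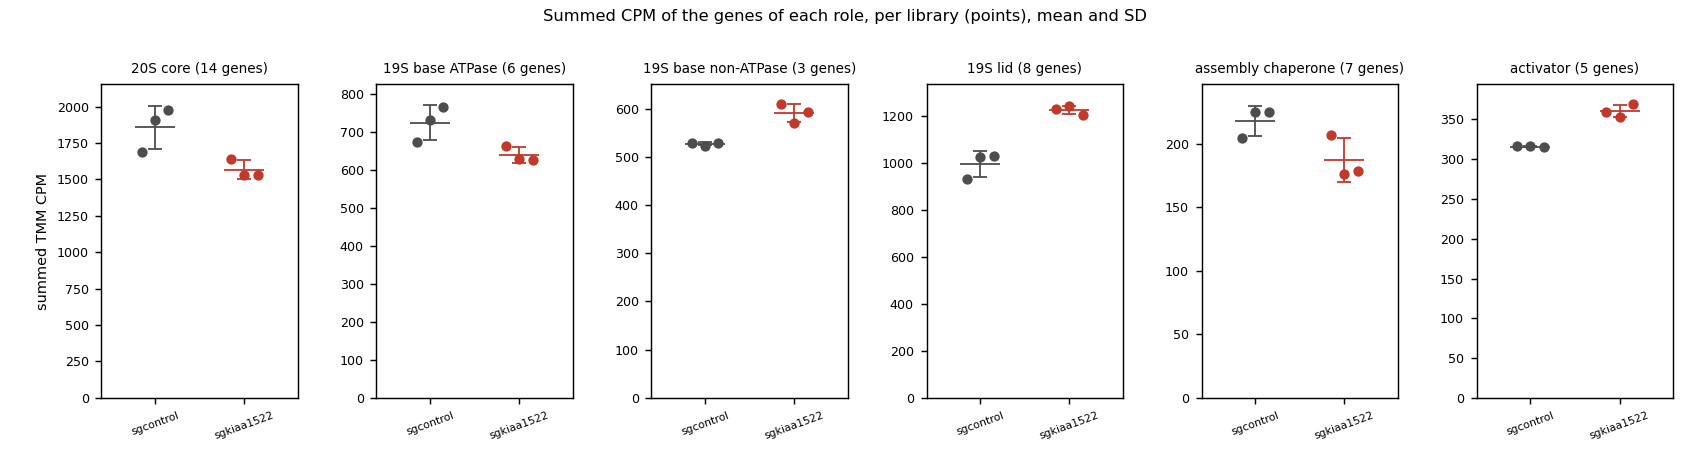
Summed CPM of the genes of each role in each library (points), with the mean and SD of the 3 libraries of a group, on axes that start at 0. The sums of the 20S core and the 19S ATPases are lower in every sgkiaa1522 library, those of the lid, the other base subunits and the activators are higher in every one, and those of the chaperones overlap.

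Libraries of 1 group also differed from each other across the members at once. Replicate 1 of sgcontrol was the lowest of its group in 35 of the 44 members, against 42.2% of all tested genes, and replicate 3 was the highest in 32, against 34.4%. Among the sgkiaa1522 libraries, replicate 1 was the highest in 30 members, against 39.4% of all tested genes. The members of a library are thus not independent measurements. Without sgcontrol replicate 1, 22 members were lower and 7 higher, and without sgcontrol replicate 2, or sgkiaa1522 replicate 2 or 3, 12 were lower and 7 or 8 higher. Of all tested genes, 29.5% were lower and 29.6% higher without the former library, and 20.7% to 21.3% were lower and 20.5% to 20.8% higher without any one of the latter.

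In the alpha ring, 4 of 7 genes were lower and none higher, against 26.3% of all tested genes in each direction, with a median log2 fold change of -0.26 (2 lower, 2 higher and a median of -0.07 with the offset for transcript length described further on). Psma6 fell most, with 159, 183 and 188 CPM in sgcontrol and 122, 115 and 120.1 CPM in sgkiaa1522. The groups lay well apart, with a log2 fold change of -0.57 ± 0.0783 (standard error, SE; adjusted p = 8.4e-04). Psma6 also had the highest level per exon length of the 20S genes, at 366 TPM (counts per exon length, set to a common total) in sgcontrol and 263 TPM in sgkiaa1522, which is a level and not a difference. By the longest transcript in place of summed exon length, Psmb1 was the highest (486 and 434 TPM) and Psma6 had 356 and 254 TPM. Psma2 had 109.8, 122 and 132 CPM in sgcontrol and 109.7, 95.5 and 96.3 CPM in sgkiaa1522 (log2 fold change -0.27, adjusted p = 0.038), where the nearest libraries of the groups all but touched. Psma7 had 159, 181 and 184 CPM against 153, 142 and 141 CPM (log2 fold change -0.27, adjusted p = 0.020). Psma5 was the other lower gene (log2 fold change -0.26, adjusted p = 0.036). It did not pass by edgeR's likelihood ratio test (adjusted p = 0.060) or in the fit of every gene with at least 1 count (adjusted p = 0.075). The calls of Psma2, Psma5 and Psma7 were each lost without any one of 4 libraries, replicates 2 and 3 of each group (adjusted p up to 0.13), and that of Psma6 was kept without any one library. Psma4 was the alpha gene nearest to no change, at 127 ± 7.71 and 128 ± 7.87 CPM (SD, n = 3), and Psma1 (log2 fold change -0.13, adjusted p = 0.17) and Psma3 (0.18, adjusted p = 0.12) did not pass either. With the offset for transcript length, Psma4 (0.22, adjusted p = 0.0064) and Psma3 (0.24, adjusted p = 0.030) were higher.

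In the beta ring, 4 of 7 genes were lower, none was higher and all 7 had a log2 fold change below 0. Of the 10046 tested genes, 5079 were below 0. With the offset for transcript length, 4 of the 7 were below 0 and 1 was higher. Below 0 were 5 of the 7 without sgcontrol replicate 2 or 3, and 6 without sgkiaa1522 replicate 3. Psmb5, which carries the chymotrypsin-like site and is the main target of proteasome inhibitors such as bortezomib, had 37.2, 47.6 and 45.4 CPM in sgcontrol and 26.8, 22.4 and 23.3 CPM in sgkiaa1522. Every sgkiaa1522 library was well below every sgcontrol library, and its log2 fold change of -0.85 ± 0.121 (SE; adjusted p = 9.9e-04) was the furthest from 0 in the 20S core. Psmb6, which carries the caspase-like site, had 132, 162 and 160.5 CPM against 123, 108 and 104 CPM (log2 fold change -0.44 ± 0.102 SE, adjusted p = 0.0085). Psmb7, which carries the trypsin-like site, did not pass, with 101 ± 6.67 and 99.2 ± 2.58 CPM (SD, n = 3; log2 fold change -0.02, adjusted p = 0.83). The genes of the catalytic subunits thus gave different results in the same libraries, and the difference between their fold changes was not tested. Psmb4, a structural beta subunit, had 142, 164 and 176 CPM against 131, 118 and 113 CPM (log2 fold change -0.41, adjusted p = 0.0087). Psmb1, also structural, had 455 ± 30.7 and 385 ± 7.67 CPM (SD, n = 3; log2 fold change -0.24, adjusted p = 0.017), and its call was lost without sgcontrol replicate 2 or sgkiaa1522 replicate 2 or 3 (adjusted p = 0.057 to 0.065). Psmb3 was nearest to no change (78.8 ± 11.1 and 77.9 ± 6.67 CPM, SD, n = 3), and Psmb2 had a log2 fold change of -0.07 (adjusted p = 0.64). The 8 lower genes of the 14 of the core compare with 26.3% of all tested genes, and the median of the 14 was -0.25. Without sgcontrol replicate 2, or sgkiaa1522 replicate 2 or 3, only 4 of the 14 were lower, and 5 were without sgcontrol replicate 3, against 20.7% to 23.3% of all tested genes in these fits.

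The immunoproteasome subunits, which replace the catalytic beta subunits in immune cells and after interferon, were present at low levels. Psmb8 had 8, 6 and 5 counts in sgcontrol and 31, 43 and 31 counts in sgkiaa1522, and Psmb9 had 15, 30 and 19 counts against 10, 11 and 10. Psmb8 was thus higher in every sgkiaa1522 library, and Psmb9 lower in every one by a margin that was narrow per CPM. In a fit of every gene with at least 1 count, Psmb8 had a log2 fold change of 2.61 (adjusted p = 8.7e-05) and Psmb9 one of -0.86 (adjusted p = 0.10). Psmb8 shares exon bases with the antisense gene Gm20496 and Psmb9 with Tap1 on the opposite strand, and the sources used here do not say whether the counting used strand. Psmb10, at 5.75 ± 0.829 and 6.67 ± 0.973 CPM (SD, n = 3), did not pass (log2 fold change 0.22, adjusted p = 0.30).

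In the base of the 19S particle, 2 of the 6 ATPase genes were lower and 1 was higher, against 26.3% of all tested genes in each direction, so the count is near that of all genes. Psmc3 (Rpt5) had 103, 117 and 129 CPM in sgcontrol and 80.4, 71.9 and 68.9 CPM in sgkiaa1522, with the groups apart (log2 fold change -0.66 ± 0.0998 SE, adjusted p = 0.0013). Psmc6 (Rpt4) had 191, 184 and 192 CPM against 131, 140.0 and 145 CPM (log2 fold change -0.45 ± 0.0614 SE, adjusted p = 8.5e-04). The value of Psmc6 was -0.07 with the median of its chromosome taken away, as described further on. Psmc4 (Rpt3) went the other way, from 56.1, 68.5 and 69.8 CPM to 93.3, 79.1 and 77.4 CPM (log2 fold change 0.36, adjusted p = 0.029), and its call was lost without any one of 4 libraries, replicates 1 and 2 of each group (adjusted p = 0.051 to 0.090). These ATPases sit in the same ring of the assembled complex. Psmc2 (122 ± 10.5 and 131 ± 4.96 CPM, SD, n = 3) was nearest to no change, and Psmc1 (log2 fold change -0.10) and Psmc5 (-0.16) did not pass. Without sgcontrol replicate 1, Psmc5 was lower (-0.26, adjusted p = 0.014), which made 3 ATPase genes lower and none higher, against 29.5% and 29.6% of all tested genes in that fit.

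Of the 3 other base genes, which make the scaffold and the ubiquitin receptors, Psmd2 rose. It had 233, 224 and 222 CPM in sgcontrol and 277, 263 and 268 CPM in sgkiaa1522 (log2 fold change 0.25 ± 0.0554 SE, adjusted p = 0.0069). The scaffold gene Psmd1 (187 ± 3.55 and 196 ± 10.8 CPM, SD, n = 3) and the ubiquitin receptor gene Psmd4 (114 ± 5.85 and 125 ± 4.92 CPM, SD, n = 3) did not pass. Adrm1, which encodes the ubiquitin receptor that docks on the Psmd1 subunit and is outside the prefixes, had 52.4, 60.4 and 66.5 CPM against 83.0, 69.1 and 73.0 CPM. It was higher in every sgkiaa1522 library (log2 fold change 0.33, adjusted p = 0.039), but not past the threshold by library size alone (adjusted p = 0.051), with an offset for transcript length (adjusted p = 0.065) or without any one of 4 libraries, sgcontrol replicates 1 and 2 and sgkiaa1522 replicates 1 and 3 (adjusted p up to 0.12).

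In the lid, 4 of 8 genes were higher and 2 lower, the latter near the 26.3% of all tested genes that went each way, with a median log2 fold change of 0.27. With the offset for transcript length, 5 were higher and 1 lower (28.3% and 26.9% of all tested genes), with a median of 0.42. Psmd8 (Rpn12) had the highest level per exon length in the 19S particle (242 TPM in sgcontrol and 399 TPM in sgkiaa1522) and rose most. It had 266, 308 and 293 CPM in sgcontrol and 454, 432 and 450.1 CPM in sgkiaa1522, far apart (log2 fold change 0.63 ± 0.0689 SE, adjusted p = 3.3e-04). Psmd11 (Rpn6), a lid subunit that bridges to the core, had 78.0, 77.1 and 76.9 CPM against 105, 121 and 117 CPM (log2 fold change 0.56 ± 0.0720 SE, adjusted p = 6.3e-04). Psmd7 (Rpn8, log2 fold change 0.35, adjusted p = 0.0029) and its partner Psmd14 (Rpn11, the deubiquitinase that frees substrates of their chain; 0.28, adjusted p = 0.0097) were also higher. Psmd6 (Rpn7) had 50.3, 58.5 and 62.0 CPM against 45.5, 40.0 and 41.1 CPM and was lower (log2 fold change -0.43, adjusted p = 0.0095). The value of Psmd6 was -0.06 with the median of its chromosome taken away, as described further on. Psmd12 (Rpn5) was called lower by a small margin (log2 fold change -0.17, adjusted p = 0.041), and DESeq2's Wald test (adjusted p = 0.058), edgeR's likelihood ratio test (adjusted p = 0.097) and the fits without any one library but sgcontrol replicate 1 (adjusted p = 0.059 to 0.14) did not call it. Psmd3 was nearest to no change (180.1 ± 15.8 and 182 ± 13.4 CPM, SD, n = 3), and Psmd13 did not pass (log2 fold change 0.27, adjusted p = 0.11). Shfm1 (Sem1, Rpn15), a small lid subunit outside the prefixes, had 170.2 ± 28.6 and 134 ± 8.82 CPM (SD, n = 3; log2 fold change -0.34, adjusted p = 0.051), with overlapping groups. It was called lower by DESeq2 (adjusted p = 0.025), the likelihood ratio test (adjusted p = 0.034), library size alone (adjusted p = 0.046), the fit of every gene with at least 1 count (adjusted p = 0.035) and without sgcontrol replicate 1 (adjusted p = 0.0018).

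The activators held 3 of the 4 log2 fold changes furthest from 0, and all 5 passed the test, 3 lower and 2 higher, against 52.5% of all tested genes in either direction. Psme2 and Psme2b are near-identical copies, described further on, so their lower calls may not be separate. Psme1 and Psme2 encode the alpha and beta subunits of PA28, a cap that interferon gamma induces and that is known for shaping peptides for antigen presentation. Psme1 had 50.8, 52.9 and 61.0 CPM in sgcontrol and 29.0, 27.4 and 27.3 CPM in sgkiaa1522 (log2 fold change -0.98 ± 0.0940 SE, adjusted p = 1.9e-04). Psme2 had 18.4, 20.6 and 22.4 CPM against 11.04, 7.47 and 9.90 CPM (log2 fold change -1.12 ± 0.160 SE, adjusted p = 9.9e-04). For both, the highest sgkiaa1522 library was far below the lowest sgcontrol library. Psme3, which encodes the nuclear activator PA28 gamma, had 72.3, 78.2 and 77.7 CPM in sgcontrol and 116, 113 and 117 CPM in sgkiaa1522 (log2 fold change 0.60 ± 0.0622 SE, adjusted p = 2.4e-04). Psme4, which encodes PA200, another nuclear activator, had 127, 105 and 95.5 CPM against 179.6, 181 and 191 CPM (log2 fold change 0.75 ± 0.104 SE, adjusted p = 8.8e-04). The genes of the PA28 heteromer were thus lower and those of the nuclear caps higher, and the calls of all 5 activators held in each of the 14 alternative fits that give a test.

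**Figure D3:**
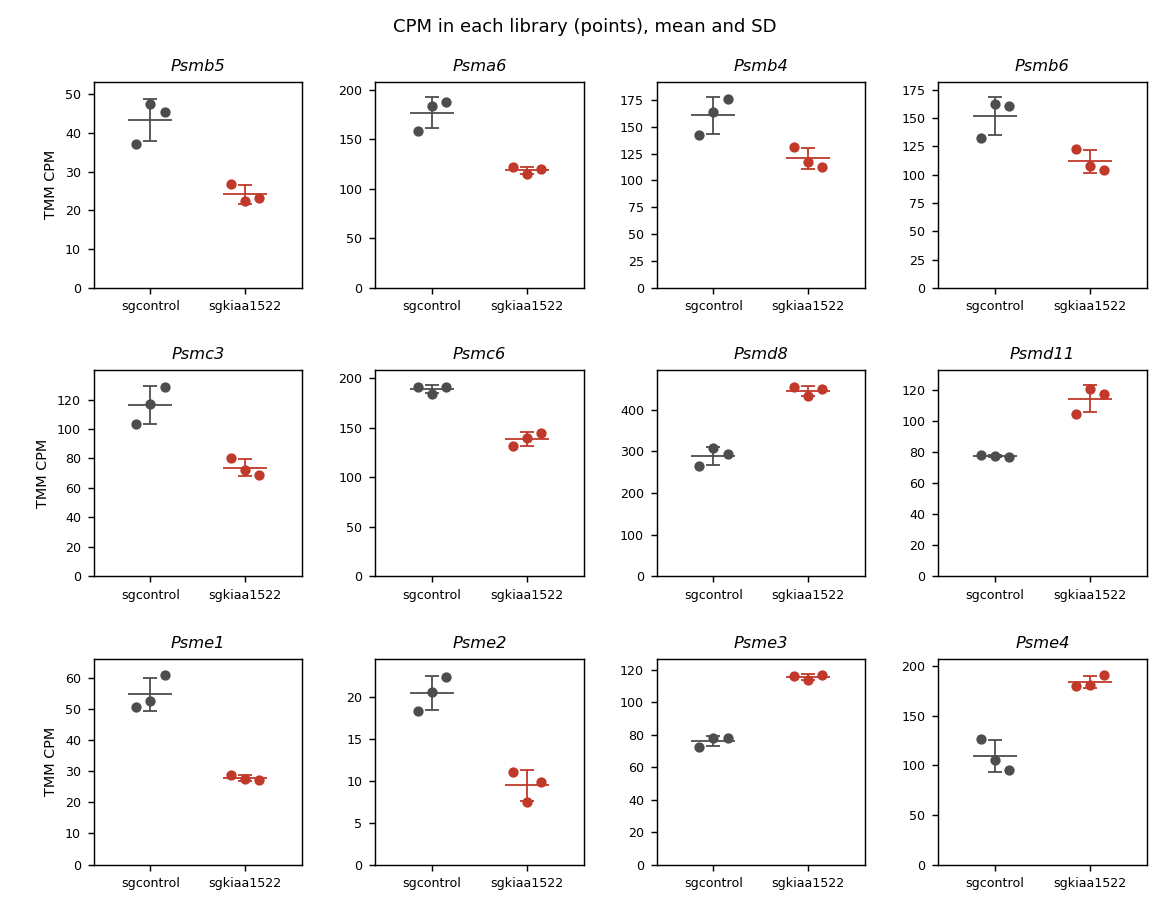
CPM of 12 members in each library (points), with the mean and SD of the 3 libraries of a group, on axes that start at 0. In all 12 panels the groups do not overlap, with Psmd8, Psmd11, Psme3 and Psme4 higher and the other 8 lower in sgkiaa1522.

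Psme2b, which had 48.0, 59.0 and 58.9 CPM in sgcontrol and 23.6, 23.5 and 24.1 CPM in sgkiaa1522 (log2 fold change -1.22 ± 0.102 SE, adjusted p = 1.1e-04), is a near-identical copy of Psme2. In GENCODE M21 on GRCm38, Psme2 spans 55587441 to 55591113 of chromosome 14 (minus strand), and Psme2b is a single exon of 837 bases at 48945354 to 48946190 of chromosome 11 (minus strand). Their coding sequences are 720 bases each and are identical at 715 bases (99.3%), with a longest identical run of 311 bases. The 120 coding bases that hold the most differences (3 of the 5, from coding base 424 to 543, as annotated in GENCODE M21) are printed to show how little separates the genes, with the differing bases in capitals and the rest alike.
Psme2: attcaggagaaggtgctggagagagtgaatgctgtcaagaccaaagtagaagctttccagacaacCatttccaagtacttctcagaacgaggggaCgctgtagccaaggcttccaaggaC
Psme2b: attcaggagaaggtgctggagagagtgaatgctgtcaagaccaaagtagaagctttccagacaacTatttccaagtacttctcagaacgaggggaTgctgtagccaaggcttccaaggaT
The authors counted uniquely mapped fragments, so a fragment inside a shared run could be counted for neither gene, and which of the genes gave the RNA is uncertain. Added together, Psme2 and Psme2b had 75.8 ± 8.16 CPM in sgcontrol and 33.2 ± 1.97 CPM in sgkiaa1522 (SD, n = 3), a ratio of 0.438.

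All 7 genes of assembly chaperones had a log2 fold change below 0, as did 5079 of the 10046 tested genes. With the offset for transcript length, or without sgkiaa1522 replicate 2 or 3, 6 of the 7 did. Of the 7, 3 passed the test, against 26.3% of all tested genes lower. Without any one of replicates 2 and 3 of each group, only Psmd10 passed. Psmd10 (gankyrin), a chaperone of the ATPase ring that is also known as an oncoprotein, had 24.7, 26.5 and 26.9 CPM in sgcontrol and 18.5, 18.4 and 18.4 CPM in sgkiaa1522 (log2 fold change -0.50 ± 0.0844 SE, adjusted p = 0.0021). Psmg3, which helps to assemble the alpha ring, had 13.4, 15.8 and 17.1 CPM against 13.02, 10.5 and 10.7 CPM (log2 fold change -0.44, adjusted p = 0.030), and the first libraries of the groups lay close together. Psmd9 had 21.8, 23.9 and 22.9 CPM against 19.1, 18.2 and 18.8 CPM (log2 fold change -0.29, adjusted p = 0.025), but 25.5% of its exon length is shared with Gm26745 on the opposite strand. The calls of Psmg3 and Psmd9 were lost without any one of replicates 2 and 3 of each group (adjusted p up to 0.10), while that of Psmd10 held. Psmd5, a chaperone of the base, was nearest to no change (73.2 ± 3.21 and 70.6 ± 13.5 CPM, SD, n = 3). Psmg1 (adjusted p = 0.063), Psmg2 (adjusted p = 0.083) and Psmg4 (adjusted p = 0.42) did not pass. Without sgcontrol replicate 1, 5 of the 7 were lower, with Psmg1 (adjusted p = 0.022) and Psmg2 (adjusted p = 0.0043) among them, against 29.5% of all tested genes in that fit. Pomp, the maturation factor of the 20S core outside the prefixes, had 58.4 ± 7.59 and 55.9 ± 8.27 CPM (SD, n = 3; log2 fold change -0.07, adjusted p = 0.70). Psmc3ip, the member that is not a proteasome gene, had 9.30, 10.1 and 12.6 CPM against 3.63, 6.87 and 5.24 CPM (log2 fold change -1.001 ± 0.232 SE, adjusted p = 0.0087), and shares 21.2% of its exon length with Mlx on the opposite strand.

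Exons shared with other genes touch further members, and how fragments in such exons were assigned is not given in the sources used here. Among them are Psmb5 (12.1% of its exon length, with Mir686 on the same strand), Psmb7 (11.8%, Nek6), Psmc3 (8.25%, Slc39a13), Psmd13 (10.1%, Sirt3) and Psmg3 (9.68%, Gm26938 on the same strand).

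The position of the members bears on some of these values. Psmb5 (minus strand, 54614119 to 54618022), Psmc6 (plus strand, 45329788 to 45349705), Psmd6 (minus strand, 14112174 to 14120984), Psme1 (plus strand, 55578123 to 55581529) and Psme2 lie on chromosome 14 of GRCm38, and all 5 were lower. Of the 343 tested genes of this chromosome, 56.6% were lower and 6.12% higher, and their median log2 fold change was -0.38. With that median taken away, Psme2 had -0.74, Psme1 -0.60, Psmb5 -0.47, Psmc6 -0.07 and Psmd6 -0.06. Psmc6 and Psmd6 thus lay near the median of their chromosome, and Psme1, Psme2 and Psmb5 well below it. The part of the chromosome in these differences was not tested. Of the other members with the clearest differences, GENCODE M21 places Psma6 at 55384222 to 55418454 of chromosome 12 (plus strand), Psmb4 at 94884093 to 94886961 of chromosome 3 (minus strand), Psmb6 at 70525367 to 70527858 of chromosome 11 (plus strand), Psmc3 at 91054009 to 91066369 of chromosome 2 (plus strand), Psmd8 at 29174188 to 29180701 of chromosome 7 (minus strand), Psmd11 at 80428615 to 80473248 of chromosome 11 (plus strand), Psme3 at 101316213 to 101323537 of chromosome 11 (plus strand), Psme4 at 30771726 to 30880361 of chromosome 11 (plus strand) and Psmd10 at 140948429 to 140956728 of chromosome X (minus strand). Of the 39 members on other chromosomes, 14 were lower and 8 higher (median -0.10), against 26.3% of all tested genes each way, and 7 of the 13 other genes of the 20S core were lower and none higher.

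Transcript length also moved with the fold changes. When the tested genes were cut into 4 equal groups by their longest annotated transcript, the group of the shortest ran from 151 to 2246 bases and held 31 of the 44 members. In that group 36.4% of all tested genes were lower and 14.9% higher (median log2 fold change -0.17), while in the group of the longest 16.7% were lower and 37.6% higher (median 0.18). Of the 31 members in the shortest group, 16 were lower (51.6%) and 4 higher (12.9%). Across the 44 members the log2 fold change and log2 length had a Pearson correlation of 0.54 and a Spearman correlation of 0.53 (0.20 and 0.25 across 10029 tested genes), given as descriptions, since genes share libraries and are not replicates. Whether length has a part in the members' values was not tested beyond the offset that follows. With an offset for length in each library, an alternative chosen after the data were seen, 16 members were lower and 13 higher and the median was -0.01, against 26.9% of all tested genes lower and 28.3% higher in that fit, so the share of higher members was near that of all genes. The 20S core then had 6 lower and 3 higher genes and a median of -0.09, the 19S particle 3 lower and 8 higher, and the activators still 3 lower and 2 higher. Psme1 (-0.85), Psme2 (-0.89), Psme2b (-0.97), Psmb5 (-0.61), Psmc3 (-0.52), Psma6 (-0.35), Psmd8 (0.75), Psmd11 (0.61), Psme3 (0.67) and Psme4 (0.61) kept their direction and an adjusted p of at most 0.05 with the offset. Psmb6 (-0.21), Psmb4 (-0.21) and Psmb1 (-0.11, adjusted p = 0.049) also kept their calls, at values well under those without the offset. Calls were lost for Psma5 (-0.07, adjusted p = 0.40), Psma7 (-0.10, adjusted p = 0.089) and Psmd12 (-0.05, adjusted p = 0.54). Calls were gained, all as higher, for Psma3, Psma4, Psmb2 (0.18, adjusted p = 0.041), Psmd4 (0.25, adjusted p = 0.0031) and Psmd13 (0.39, adjusted p = 0.011).

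**Figure D4:**
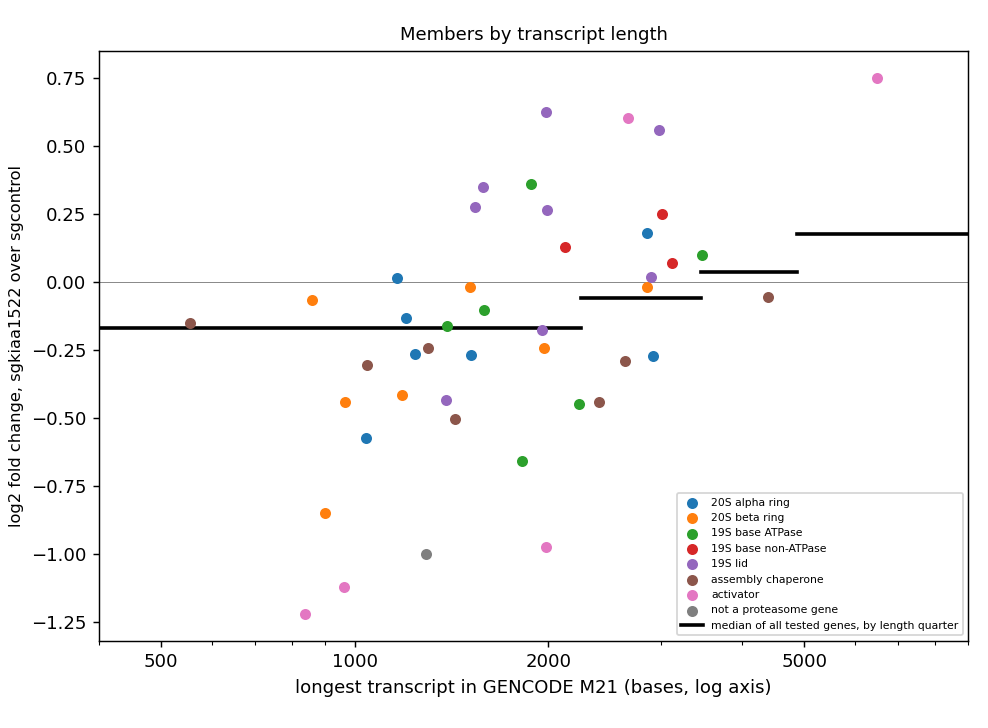
Log2 fold change of the 44 members (points, coloured by role) against the length of the longest transcript in bases on a log axis, with black lines for the median of all tested genes in each of 4 equal groups by length. The lines go from -0.17 in the shortest group to 0.18 in the longest, and the members lie on both sides of them, with Psme1, Psme2, Psme2b and Psmb5 far below and Psmd8, Psmd11, Psme3 and Psme4 far above.

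Of the 19 lower members, 12 passed in each of the 14 alternative fits that give a test, namely Psma6, Psmb4, Psmb5, Psmb6, Psmc3, Psmc6, Psmd6, Psmd10, Psme1, Psme2, Psme2b and Psmc3ip. Of the 8 higher members, 7 did so (Psmd2, Psmd7, Psmd8, Psmd11, Psmd14, Psme3 and Psme4), and the other was Psmc4. With chromosome medians taken away, a setting that gives no test, Psmc6 (-0.07) and Psmd6 (-0.06) lay near 0. How many of all tested genes passed in every fit was not counted.

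The transcription factors NRF1 (Nfe2l1) and NRF2 (Nfe2l2) are known to raise proteasome genes from antioxidant response elements, NRF1 when proteasome activity falls. Nfe2l2 had 96.9, 91.7 and 94.7 CPM in sgcontrol and 128, 143 and 137 CPM in sgkiaa1522 and was higher (log2 fold change 0.53 ± 0.0646 SE, adjusted p = 5.2e-04). Nfe2l1 had 93.9, 93.7 and 411 CPM against 123, 429 and 99.8 CPM, with 1 library of each group far above the others, so that no difference between the groups could be read (log2 fold change 0.13, adjusted p = 0.90). The core of the element, TGACNNNGC on either strand, was searched in RefSeq promoter windows (GRCm38.p6, 250 bases before to 50 after the start), which were at hand for 37 of the 44 members. It occurred in 6 of the 37 (16.2%), against 13.99% of 27025 genes of the table. The CCAAT box, CCAAT on either strand, occurred in 13 of the 37 (35.1%), against 41.1%. Of the members called lower, 5 of 17 held TGACNNNGC, as did 1 of 7 called higher and none of the 13 not called. The windows are printed 5′ to 3′ on the strand of the gene, with the match in capitals, which reads as the reverse complement in Psmc6, Psmd12 and Psme4. A match is a run of letters and not evidence of binding.
Psmb5, chr14:54618024-54618052, minus strand: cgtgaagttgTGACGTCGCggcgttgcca
Psmb6, chr11:70525338-70525366, plus strand: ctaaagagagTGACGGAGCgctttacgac
Psmc6, chr14:45329587-45329615, plus strand: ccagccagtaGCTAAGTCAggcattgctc
Psmd12, chr11:107479278-107479299, plus strand: tctGCTGTGTCAcatttgcccc
Psmd9, chr5:123228149-123228177, plus strand: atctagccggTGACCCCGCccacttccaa
Psme4, chr11:30771758-30771786, plus strand: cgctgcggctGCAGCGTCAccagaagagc

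The genes that work with the proteasome were read from a list of 40 tested partners, of which 5 were lower and 20 higher (median log2 fold change 0.23), against 26.3% of all tested genes in each direction. Ubiquitin shuttles, which carry tagged proteins to the 19S particle, had 6 of 7 genes higher and none lower, and the inhibitors and proteasome-bound factors had 6 of 9 higher and none lower. The p97 ATPase and its cofactors had 3 of 8 lower and 3 higher, and the ubiquitin genes 1 of 4 lower and none higher. Ddi2, a shuttle and protease that cleaves NRF1, had 83.1, 71.2 and 60.2 CPM in sgcontrol and 127, 127 and 133 CPM in sgkiaa1522 (log2 fold change 0.85 ± 0.113 SE, adjusted p = 7.3e-04), although 18.3% of its exon length is shared with Rsc1a1 on the same strand. Zfand5, a proteasome-binding protein that stimulates its activity, had 128, 115 and 112 CPM against 199, 206 and 199 CPM (log2 fold change 0.77 ± 0.0700 SE, adjusted p = 1.5e-04). Zfand2a (AIRAP), induced by arsenite and known to bind the 19S particle, had the largest fold, with 14.1, 38.8 and 11.2 CPM against 97.4, 99.996 and 32.6 CPM (log2 fold change 1.84 ± 0.562 SE, adjusted p = 0.027), but its groups overlapped and the call was lost without any one of 4 libraries, sgcontrol replicates 1 and 3 and sgkiaa1522 replicates 1 and 2 (adjusted p = 0.071 to 0.079). Vcp, the p97 ATPase that extracts ubiquitin-tagged proteins, was higher (log2 fold change 0.33, adjusted p = 0.0051), and is named after its values were seen. Psmf1, the gene of the proteasome inhibitor PI31, had 29.7 ± 4.39 and 29.1 ± 3.19 CPM (SD, n = 3).

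The largest difference among the lower partners was that of Ngly1, the glycanase that NRF1 needs for its activation, with 41.9, 43.1 and 43.4 CPM in sgcontrol and 18.0, 19.9 and 20.4 CPM in sgkiaa1522 (log2 fold change -1.14 ± 0.0827 SE, adjusted p = 7.1e-05). Ngly1 lies on chromosome 14, and its value was -0.76 with the median of that chromosome taken away. Nsfl1c, a cofactor of p97, had 85.9 ± 10.5 and 68.1 ± 1.51 CPM (SD, n = 3; log2 fold change -0.33, adjusted p = 0.020), and its call was lost without sgcontrol replicate 2 or any one sgkiaa1522 library (adjusted p = 0.052 to 0.070) and with the offset for length (adjusted p = 0.063). The polyubiquitin gene Ubb had 418 ± 50.1 and 334 ± 12.4 CPM (SD, n = 3; log2 fold change -0.32, adjusted p = 0.020), and its call was lost without any one of replicates 2 and 3 of each group (adjusted p = 0.058 to 0.071).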

How the data were processed

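RNA of 6 libraries was analysed. The authors trimmed adaptors and removed rRNA reads with Seqtk, mapped reads to GRCm38 with HISAT2 2.0.4 and counted uniquely mapped fragments per gene with StringTie 1.3.0, and the deposited values are raw counts. The annotation release and the use of strand are not given in the sources used here. Groups and replicate numbers came from the labels. Members and gene lists were chosen with earlier results of these data known.

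The 10046 genes whose counts summed to more than 500, the study's filter, were tested with edgeR 4.0.16 (quasi-likelihood test, TMM, no covariates, Benjamini-Hochberg adjustment over all of them) in R 4.3.3. TMM factors were 0.989 to 1.01, with a biological coefficient of variation of 0.127. The test was tested on simulated data of 10046 genes, where it recovered 199 of 200 genes changed 2-fold and called 6 others. Positions, exon overlaps and lengths came from GENCODE M21, which matched 34344 of 34745 genes, and promoter windows from RefSeq. TPM used summed exon lengths. Values per library are given for the 3 largest changes of each role past the threshold and the 10 largest among all members, and the gene nearest to no change is named in each role. Non-members are Psmb8, Psmb9, Psmb10, Pomp, Shfm1, Adrm1, Psmf1, Nfe2l1, Nfe2l2 and the 3 partners with the largest change in each direction. No pair of libraries of a group agreed within sampling noise (chi-square over its degrees of freedom at least 12.3).

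Alternatives were DESeq2 1.42.0, the likelihood ratio test, RLE factors, library size alone, 2 other filters, a replicate block, chromosome medians taken away, each library left out, the longest transcript for TPM and, added after the data were seen, a loess offset for transcript length.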

Additional observations from a re-analysis of the deposited data

How the results depend on the processing

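None of the 27 called members changed direction in any setting. The standard errors of the members' log2 fold changes ran from 0.0554 (Psmd2) to 0.232 (Psmc3ip, the member with the fewest counts). Same-numbered libraries did not deviate together (correlations across genes of -0.23, -0.053 and -0.17). Deviations from a mean of 3 libraries are tied to each other, so this does not settle whether the numbers pair the samples. A replicate block gave a fit in which 12 members were lower and 7 higher, with 8 of the 27 calls lost. In that fit 3 partners were lower, and of the 10046 tested genes 2111 were lower and 2109 higher. Left-out single libraries gave 12 to 22 lower members, 7 to 8 higher, 2 to 8 lower partners and a median log2 fold change of -0.22 to -0.10 over the members. Beyond a log2 fold change of -1, 1 member was left (Psme2b) with chromosome medians taken away, and 0 with the offset for transcript length, against 3 as reported (2 with RLE size factors, with either other filter, and 2 to 4 without single libraries). The offset gave 13 higher members and a median of -0.0143. The cause of these differences between settings was not tested. The median TPM of the members, 81.3 in sgcontrol and 78.4 in sgkiaa1522 by summed exon length, was 105.7 and 93.4 by the longest transcript. Sign changes were found only in genes that did not pass the test as reported. The offset turned the log2 fold change of Psmb7 to 0.0379, Psmc1 to 0.0566, Psmb3 to 0.152, Psmc5 to 0.0193, Psma1 to 0.0628, Psmb2 to 0.178 (adjusted p = 0.041 by the quasi-likelihood test of edgeR) and Psmg4 to 0.145, and the chromosome medians that of Psma4 to -0.0115. Without single libraries the range was -0.0806 to 0.0056 for Psmb7, -0.0376 to 0.0507 for Psma4, -0.134 to 0.0621 for Psmb3, -0.0609 to 0.0675 for Psmd3, -0.220 to 0.0240 for Psmd5, -0.123 to 0.0915 for Psmf1, -0.844 to 1.21 for Nfe2l1 and -0.193 to 0.0034 for Pomp.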
